A study of Homo sapiens with 12 samples.

Results

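The transcription factor NF-kB and its feedback inhibitors were described here through 10 genes in HCT116 cells with and without knockout of the phosphatase gene PPM1G. They were the 5 Rel-family subunit genes NFKB1, NFKB2, RELA, RELB and REL, the IkB inhibitor genes NFKBIA and NFKBIE, the ubiquitin-system feedback inhibitors TNFAIP3 and TNIP1, and the ubiquitin ligase gene BIRC3. They were taken by symbol from the count tables, a rule that uses no measured value, though the set was drawn up with earlier results of these data known. All 10 were found among the 56104 gene IDs of each table, and all 10 passed the filter on low counts in both assays. HCT116 is a human colorectal carcinoma cell line, used at passages under 15. There were 4 groups of 3 libraries each: 4sU-seq of PPM1G KO cells, 4sU-seq of Ctrl cells, RNA-seq of PPM1G KO cells and RNA-seq of Ctrl cells. The sample titles name the Ctrl libraries Ctrl_KO, so Ctrl need not mean unmodified cells. In 4sU-seq, cells took up 4-thiouridine (500 µM) for 10 min, and the labelled, newly made RNA was pulled down from 300 µg of RNA; RNA-seq measured steady-state total RNA. No stimulus such as TNF is named for any group, and nothing used here says whether the KO cells are a single clone, which site was edited, or whether both assays drew on the same cultures.

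NF-kB is a family of dimers built from Rel-family proteins. RELA, RELB and REL carry transactivation domains, whereas NFKB1 and NFKB2 encode precursors (p105 and p100) that are processed to the DNA-binding subunits p50 and p52. In resting cells IkB proteins hold the dimers in the cytoplasm; receptors such as the TNF receptor activate the IKK kinase complex, IkB is degraded, and the dimers enter the nucleus and bind kappa-B sites. Several of their targets, among them NFKBIA, TNFAIP3 and TNIP1, encode inhibitors that close a negative feedback loop. PPM1G is a nuclear serine/threonine phosphatase of the PP2C family, known from earlier work to bind the 7SK ribonucleoprotein that holds the elongation kinase P-TEFb and to be brought to promoters by NF-kB.

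Each 4sU-seq library held between 79403238 and 101884166 gene counts, and each RNA-seq library between 30962756 and 42479828. PPM1G itself, in TMM-scaled CPM (counts-per-million values), stood in RNA-seq at 97.9, 95.02 and 98.0 in KO and at 326, 293 and 331 in Ctrl libraries. It stood in 4sU-seq at 98.9, 144 and 104 CPM in KO and at 242, 271 and 235 CPM in Ctrl libraries, so every library went with its label in both assays, and the log2 changes were −1.71 ± 0.06 and −1.11 ± 0.17 (SE; adjusted p = 1.77e-10 and 0.00717; 4sU-seq without KO replicate 2 −1.37 ± 0.10). Across 16 alternative ways of processing, the fall of PPM1G in 4sU-seq kept its direction in all 16 and its call in 15. The epithelial markers KRT8 and EPCAM were among the well expressed genes in both genotypes (EPCAM 349 CPM in KO and 392 CPM in Ctrl libraries of RNA-seq), while VIL1 and CDX1 were low and CDX1 was at 0 in RNA-seq. The summed CPM of 7 lymphocyte and myeloid markers lay between 0.488 and 0.546 in KO and between 0.239 and 0.292 in Ctrl libraries of RNA-seq, with CD3E at 0, and between 0.407 and 0.545 against 0.219 and 0.278 in 4sU-seq. The sum of 4 fibroblast markers, mostly COL1A1, lay between 9.76 and 11.1 CPM in KO and between 4.28 and 6.28 CPM in Ctrl libraries of RNA-seq (COL1A2 and DCN at 0), and between 9.72 and 13.7 against 5.00 and 5.94 CPM in 4sU-seq. The sum of 3 endothelial markers was 12.6 to 12.8 CPM in KO and 5.85 to 6.55 CPM in Ctrl libraries of 4sU-seq, and 0.498 to 0.683 against 0.162 to 0.418 CPM in RNA-seq; the part of these markers in the results was not tested.

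Some libraries stood apart. In 4sU-seq, KO replicate 2 differed from the other KO libraries in a way that followed gene span, so that short genes were high in it and long genes low, and the nascent results of the 10 genes and of the pathway genes named are given with and without it. In RNA-seq, KO replicates 1 and 2 were much closer to each other (chi-square per degree of freedom 1.73) than any other pair of the same genotype (10.7 to 19.3). They were still further apart than sampling noise alone. Results with both added into 1 library are given for the number of the 10 genes called and for NFKBIA. They are also given for the counts of pathway genes where these changed.

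At steady state, 8 of the 10 genes differed between KO and Ctrl at an adjusted p below 0.05 (edgeR quasi-likelihood test). REL and BIRC3 rose, NFKB1, RELA, RELB, NFKBIA, TNFAIP3 and TNIP1 fell, and NFKB2 and NFKBIE were not called. Over all 20415 genes tested the share called was 48.4%, with 21.5% higher and 26.8% lower, and the median log2 change was −0.21 over the 10 genes and 0.00 over all genes. The 8 called genes were also the 8 whose KO and Ctrl libraries did not overlap, which held for 56.1% of all genes tested (26.1% with every KO library higher, 29.9% with every KO library lower). The count was 7 (2 higher, 5 lower) with KO replicates 1 and 2 added into 1 library, where 40.8% of all genes were called, and 3 (TNFAIP3, TNIP1 and BIRC3) when all 12 libraries shared 1 estimate of the spread. In that last fit 4788 of all 20415 genes were called. With library size alone as the scaling, the median of all genes stood at 0.19 and the 8 called genes were 4 higher (NFKB2, REL, NFKBIE, BIRC3) and 4 lower (NFKB1, RELA, TNFAIP3, TNIP1). Under that scaling 7439 of all 20415 genes were called higher and 2817 lower. As these were bulk samples, fewer cells of a type and less RNA per cell cannot be told apart.

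In newly made RNA, BIRC3 rose, TNFAIP3 fell and the other 8 genes were not called, against a background of 19.6% of 21236 genes called (12.6% higher, 6.98% lower). BIRC3 and TNFAIP3 were also the 2 genes whose KO and Ctrl libraries did not overlap, against 38.4% of all genes (20.6% with every KO library higher, 17.8% with every KO library lower). Without 4sU-seq KO replicate 2, 7 of the 10 were called, beside 53.8% of all genes (25.4% higher, 28.4% lower): REL joined BIRC3 on the higher side, and RELA, RELB, NFKBIA and NFKBIE joined TNFAIP3 on the lower side. The number called was 0 without Ctrl replicate 1 and 1 without Ctrl replicate 2, Ctrl replicate 3, KO replicate 1 or KO replicate 3. Calls over all genes fell too, from 4166 of 21236 to 1322 of 21720 without Ctrl replicate 1. They were 1478 of 21776 without Ctrl replicate 2 and 1710 of 21737 without Ctrl replicate 3. Without KO replicate 1 they were 1645 of 21419, and without KO replicate 3 they were 2784 of 21537.

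**Figure D1:**
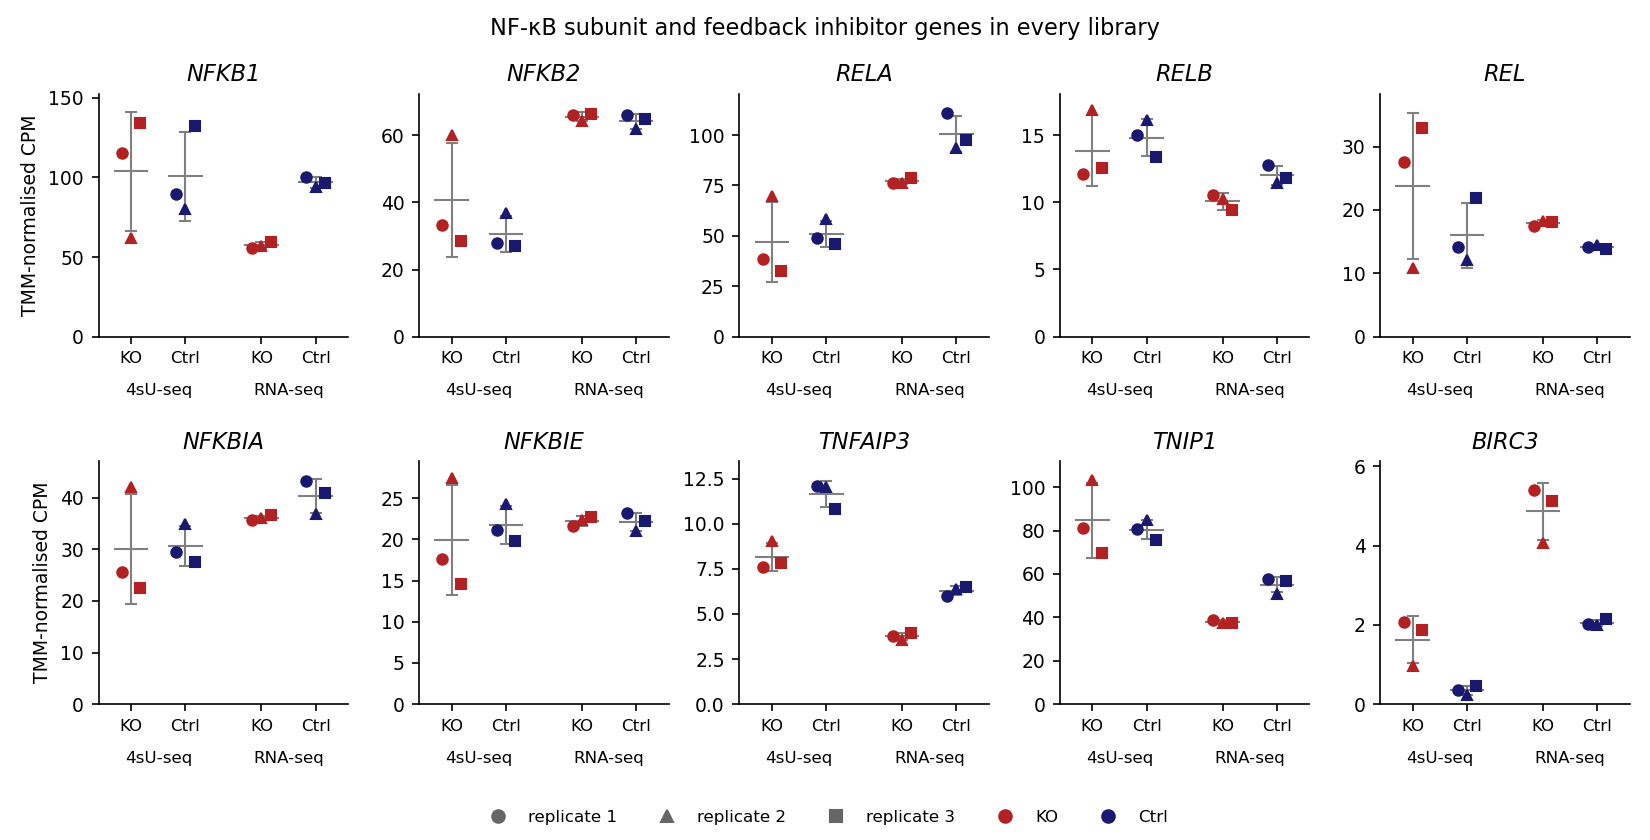
Level of each of the 10 genes in every library, in TMM-normalised CPM (each panel's axis starts at 0), with KO left of Ctrl within each assay; symbols mark the replicate number, horizontal lines the mean and bars the SD of 3 libraries. In RNA-seq the replicates lie close together and BIRC3 and REL are higher in KO (BIRC3 4.06 to 5.41 against 2.00 to 2.14 CPM), while in 4sU-seq KO replicate 2 (triangle) lies away from the other KO libraries for most genes.

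The promoter windows of the genes that moved most at steady state, and of REL, the subunit gene that rose there, are printed here because NF-kB is known to bind several of them, so that each gene's change can be read beside the sequence. They were taken from RefSeq on GRCh38.p14 and run from 250 bases before to 50 bases after a gene's annotated start. Capitals mark matches to the 10-base kappa-B consensus on either strand; where 2 matches overlap, as in REL, the capitals cover both.
BIRC3 chr11:102317234-102317533, + strand: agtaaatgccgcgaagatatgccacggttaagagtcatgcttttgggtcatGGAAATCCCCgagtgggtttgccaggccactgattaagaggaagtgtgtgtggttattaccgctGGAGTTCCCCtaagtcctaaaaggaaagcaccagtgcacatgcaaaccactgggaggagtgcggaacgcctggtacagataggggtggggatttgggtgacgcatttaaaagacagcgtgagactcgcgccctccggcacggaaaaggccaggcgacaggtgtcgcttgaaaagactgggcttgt
REL chr2:60881324-60881623, + strand: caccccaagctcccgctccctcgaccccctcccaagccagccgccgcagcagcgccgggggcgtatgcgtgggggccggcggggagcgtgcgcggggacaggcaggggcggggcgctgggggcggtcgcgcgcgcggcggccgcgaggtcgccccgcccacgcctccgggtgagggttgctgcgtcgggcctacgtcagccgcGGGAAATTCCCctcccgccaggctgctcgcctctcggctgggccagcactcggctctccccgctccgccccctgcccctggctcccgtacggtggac
NFKB1 chr4:102501109-102501408, + strand: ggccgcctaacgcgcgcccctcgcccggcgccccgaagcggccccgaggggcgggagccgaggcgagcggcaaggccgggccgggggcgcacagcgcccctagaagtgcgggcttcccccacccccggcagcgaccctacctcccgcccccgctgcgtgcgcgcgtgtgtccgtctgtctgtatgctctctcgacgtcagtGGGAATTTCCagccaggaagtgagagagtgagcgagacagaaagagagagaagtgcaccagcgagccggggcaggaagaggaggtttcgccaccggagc
TNFAIP3 chr6:137867009-137867308, + strand: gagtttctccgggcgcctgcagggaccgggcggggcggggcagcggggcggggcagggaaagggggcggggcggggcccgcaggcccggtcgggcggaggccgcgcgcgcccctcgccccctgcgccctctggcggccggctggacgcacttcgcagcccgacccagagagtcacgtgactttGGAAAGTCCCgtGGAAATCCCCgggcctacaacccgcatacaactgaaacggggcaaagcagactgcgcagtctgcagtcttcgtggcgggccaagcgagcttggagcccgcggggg
TNIP1 chr5:151080985-151081284, − strand: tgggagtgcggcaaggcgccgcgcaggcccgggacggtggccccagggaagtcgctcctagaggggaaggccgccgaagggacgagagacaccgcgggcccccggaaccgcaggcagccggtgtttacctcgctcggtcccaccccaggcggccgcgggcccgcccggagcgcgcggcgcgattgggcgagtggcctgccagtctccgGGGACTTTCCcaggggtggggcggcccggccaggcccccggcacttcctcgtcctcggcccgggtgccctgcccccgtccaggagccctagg
The BIRC3 window held 2 matches on the opposite strand, 199 and 135 bases before the start. The TNFAIP3 window held 2 on the opposite strand, 67 and 55 bases before it. REL had an overlapping pair, on either strand, 47 and 46 bases before the start, NFKB1 a match 49 bases before and TNIP1 a match 42 bases before it. NFKB1 and TNIP1 each had a second annotated start, whose window held no match and is not printed. The printed TNIP1 window lies inside the gene's span, which on the − strand begins at 151093577. The TNIP1 match and the TNFAIP3 match 67 bases before the start have the same letters, GGGACTTTCC. Of the 10 genes 8 had windows in the table (13 windows in all); RELB and NFKBIE were not matched. Of these 13 windows 8 held at least 1 match, beside 11.3% of the 35116 windows of all genes. The windows without one were both of RELA and a second window each of NFKB1, NFKB2 and TNIP1. The share with a match is no test, as genes that NF-kB is known to bind were among those chosen. A match describes the letters only, and genes with matches lay on both sides: BIRC3 and REL were higher in KO cells at steady state, and NFKB1, TNFAIP3 and TNIP1 were lower. Among the genes not printed, NFKB2 had windows with 4 and 3 matches, counted on each strand, and was not called (0.03, edgeR adjusted p = 0.679). NFKBIA had 1 match and a change of −0.16, and RELA, without a match, fell by 0.39.

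Among the subunits, NFKB1 changed most at steady state. Its estimate in newly made RNA was the smallest over all libraries, with a wide interval, but not without KO replicate 2, where that of NFKB2 was smaller (−0.05). NFKB1 (ENSG00000109320, 4:102501329-102617302 on hg38, + strand), which encodes p105 and p50, stood in RNA-seq at 55.4, 57.1 and 59.5 CPM in KO libraries, against 100.5, 93.7 and 96.2 CPM in Ctrl libraries. All 3 KO libraries lay below all Ctrl libraries, and the libraries of a genotype were within 1.07-fold of each other. The change was −0.76 ± 0.06 on the log2 scale (SE; 95% interval −0.88 to −0.63, adjusted p = 2.62e-07), or 1.69-fold lower. In 4sU-seq the same gene stood at 115, 62.1 and 134 CPM in KO and at 89.8, 80.0 and 132 CPM in Ctrl libraries. The groups overlapped, replicate 2 was the lowest of both, and the change of 0.04 ± 0.32 was not called (95% interval −0.73 to 0.81, adjusted p = 0.945), nor was that of 0.24 without KO replicate 2 (adjusted p = 0.368).

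RELA (ENSG00000173039, 11:65653596-65663094, − strand), the p65 subunit that carries most of the transactivation in the classical pathway, stood in RNA-seq at 76.2, 76.3 and 78.5 CPM in KO libraries, against 111, 93.7 and 97.7 CPM in Ctrl libraries. The KO libraries were nearly equal and all lay below the lowest Ctrl library, and RELA fell by 0.39 on the log2 scale (SE 0.07, adjusted p = 0.000299). In 4sU-seq RELA was at 38.8, 69.6 and 32.8 CPM in KO and at 49.2, 58.3 and 45.8 CPM in Ctrl libraries. Here KO replicate 2 was above every Ctrl library and the other KO libraries were below them all, and the change was −0.12 ± 0.29 (adjusted p = 0.813). Without KO replicate 2 it was −0.58 ± 0.13 (adjusted p = 0.00956).

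RELB (ENSG00000104856, 19:45001430-45038198, + strand), the partner of p52 in the alternative pathway, had 10.6, 10.2 and 9.39 CPM in KO and 12.8, 11.4 and 11.8 CPM in Ctrl libraries of RNA-seq. The groups did not overlap but came close, and RELB fell by 0.25 on the log2 scale (SE 0.08, adjusted p = 0.0144). This call was kept in 9 of 16 alternatives and lost under ERCC scaling (−0.18, adjusted p = 0.320), with library size alone (−0.07, 0.522), with a minimum mean of 50 counts (0.0659), with DESeq2 (0.0600), with all 12 libraries in 1 fit (0.164), without Ctrl replicate 1 (0.123) and without KO replicate 3 (0.0678). In 4sU-seq RELB was at 12.1, 16.9 and 12.5 CPM in KO and 15.0, 16.1 and 13.3 CPM in Ctrl libraries. These overlapped, and the change of −0.10 ± 0.17 was not called (adjusted p = 0.731); without KO replicate 2 it was −0.33 ± 0.11 (adjusted p = 0.0370).

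REL (ENSG00000162924, 2:60881521-60931610, + strand), which encodes c-Rel, best known from lymphocytes, was the only subunit gene called higher at steady state under TMM scaling. It stood at 17.4, 18.3 and 18.1 CPM in KO libraries of RNA-seq, against 14.1, 14.4 and 13.9 CPM in Ctrl libraries. Every KO library lay above every Ctrl library, and REL rose 1.27-fold (log2 0.34 ± 0.06, adjusted p = 0.000405). In 4sU-seq REL had 27.6, 10.8 and 33.0 CPM in KO and 14.1, 12.1 and 21.9 CPM in Ctrl libraries. KO replicates 1 and 3 were above all Ctrl libraries and KO replicate 2 below them all, a 3.04-fold range within KO, and the change of 0.57 ± 0.43 was not called (95% interval −0.46 to 1.60, adjusted p = 0.403). Without KO replicate 2 it was 0.85 ± 0.24 (adjusted p = 0.0207).

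NFKB2 (ENSG00000077150, 10:102394110-102402529, + strand), which encodes p100 and p52 of the alternative pathway, had 66.2, 64.1 and 66.4 CPM in KO and 65.9, 61.7 and 64.9 CPM in Ctrl libraries of RNA-seq. The groups overlapped and the change was 0.03 ± 0.05 (95% interval −0.09 to 0.15, adjusted p = 0.679); relative to library size alone it was 0.22 (adjusted p = 0.00454), beside the median of 0.19 for all genes under that scaling. In 4sU-seq NFKB2 stood at 33.3, 60.1 and 28.6 CPM in KO and at 28.0, 36.8 and 27.1 CPM in Ctrl libraries. Replicate 2 was the highest of each genotype, and the change of 0.41 ± 0.30 was not called (adjusted p = 0.392), nor was the −0.05 without KO replicate 2 (adjusted p = 0.781).

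Set against exon length, the makeup of the family's steady-state RNA differed between the genotypes. In CPM per kb of annotated exon, RNA-seq levels averaged 14.6 for NFKB2, 14.1 for RELA, 9.16 for NFKB1, 3.32 for RELB and 1.36 for REL in KO cells. In Ctrl cells RELA came first at 18.4, then NFKB1 at 15.5, NFKB2 at 14.3, RELB at 3.96 and REL at 1.08 CPM per kb. NFKB1 and NFKB2 did not overlap in KO cells (8.85 to 9.50 against 14.3 to 14.8 CPM per kb), nor in Ctrl cells, where their order was the reverse (15.0 to 16.1 against 13.8 to 14.7 CPM per kb). NFKB2 and RELA, next to each other in KO cells, overlapped there. As a share of the sum of the 5 subunit levels, NFKB1 made up 21.5 ± 0.575% in KO and 29.1 ± 0.495% in Ctrl cells (SD, n = 3 each), NFKB2 34.4 ± 0.461% in KO and 26.9 ± 0.717% in Ctrl cells, and REL 3.20 ± 0.0856% in KO and 2.02 ± 0.127% in Ctrl cells. RELA made up 33.1 ± 0.184% in KO and 34.6 ± 1.23% in Ctrl cells, a small difference, though the libraries did not overlap (32.9 to 33.3% against 33.8 to 36.0%). RELB stood at 7.80 ± 0.557% in KO and 7.43 ± 0.0463% in Ctrl cells, and its libraries overlapped. The sum itself was 42.6 ± 0.533 CPM per kb in KO and 53.2 ± 2.81 CPM per kb in Ctrl cells. These shares are a description and depend on the annotated exon length, and a rise in one share lowers the others.

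**Figure D2:**
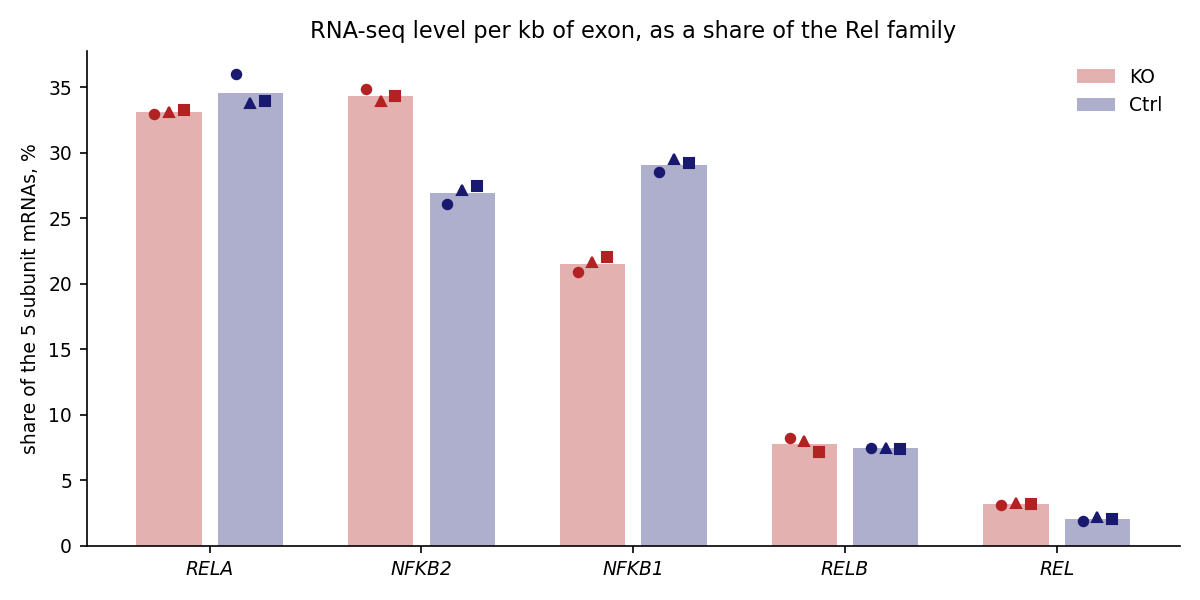
Share of each Rel-family gene in the summed RNA-seq level of the 5 genes, in percent of CPM per kb of exon, with KO left of Ctrl; bars are means of 3 libraries and points are the libraries, with a circle, triangle and square for replicates 1, 2 and 3. The share of NFKB1 is lower in KO (21.5% against 29.1%) and that of NFKB2 higher (34.4% against 26.9%), and the points of both genotypes do not overlap for either gene.

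The IkB genes moved less. NFKBIA (ENSG00000100906, 14:35401511-35404749, − strand) encodes IkB-alpha, the inhibitor that is degraded and rapidly made again during NF-kB signalling. It stood in RNA-seq at 35.6, 36.0 and 36.6 CPM in KO and at 43.3, 36.8 and 40.9 CPM in Ctrl libraries. The lowest Ctrl library lay just above the highest KO library, and the change of −0.16 ± 0.06 was called at an adjusted p of 0.0493. That call was kept in 3 of 16 alternatives (adjusted p up to 0.789 in the others). It was lost, among others, without Ctrl replicate 1 (−0.06, adjusted p = 0.418), Ctrl replicate 3 (0.202), KO replicate 1 (0.141), KO replicate 2 (0.132) or KO replicate 3 (0.0804), with KO replicates 1 and 2 added (0.123), under ERCC scaling (0.609) and with library size alone, where the value was 0.02. NFKBIA in 4sU-seq was at 25.6, 42.1 and 22.4 CPM in KO and at 29.4, 34.9 and 27.6 CPM in Ctrl libraries. These overlapped through replicate 2, and the change was −0.03 ± 0.25 (adjusted p = 0.955), or −0.42 ± 0.13 without KO replicate 2 (adjusted p = 0.0283).

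NFKBIE (ENSG00000146232, 6:44258166-44265788, − strand), which encodes IkB-epsilon, a slower acting inhibitor of RELA and REL dimers, was at 21.6, 22.3 and 22.8 CPM in KO and at 23.2, 21.0 and 22.3 CPM in Ctrl libraries of RNA-seq. The groups overlapped, and the change was 0.00 ± 0.06, with a 95% interval of −0.12 to 0.13 and an adjusted p of 0.963; it was 0.19 with library size alone (adjusted p = 0.0230), again beside the median of 0.19 for all genes. In 4sU-seq NFKBIE stood at 17.6, 27.4 and 14.6 CPM in KO and at 21.2, 24.3 and 19.8 CPM in Ctrl libraries. The groups overlapped and the change of −0.13 ± 0.25 was not called (adjusted p = 0.752); without KO replicate 2 it was −0.50 ± 0.13 (adjusted p = 0.0146).

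TNFAIP3 was lower in KO cells in both assays. TNFAIP3 (ENSG00000118503, 6:137867188-137883312, + strand) encodes A20, an enzyme that edits ubiquitin chains on signalling proteins upstream of IKK and thereby limits NF-kB. In 4sU-seq it stood at 7.62, 9.03 and 7.80 CPM in KO libraries, against 12.1, 12.1 and 10.8 CPM in Ctrl libraries. Every KO library, replicate 2 included, lay below every Ctrl library. TNFAIP3 fell by 0.52 on the log2 scale in newly made RNA (SE 0.13, 1.43-fold lower, 95% interval 1.16 to 1.77, adjusted p = 0.0350), and the value was −0.67 ± 0.10 without KO replicate 2 (adjusted p = 0.00179). The call was lost under ERCC scaling (−0.30, adjusted p = 0.744), with library size alone (0.0853), without Ctrl replicate 1 (0.153), Ctrl replicate 2 (0.149) or Ctrl replicate 3 (0.0710), and without KO replicate 1 (0.149) or KO replicate 3 (0.0963).

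At steady state TNFAIP3 had 3.77, 3.57 and 3.95 CPM in KO libraries, against 5.99, 6.37 and 6.49 CPM in Ctrl libraries. The groups were well apart, and TNFAIP3 fell by 0.74 on the log2 scale (SE 0.10, 1.67-fold lower, adjusted p = 3.97e-05), a call kept in every alternative run (adjusted p up to 0.00101). TNFAIP3 shares 1046 bases with the opposite-strand gene RP11-356I2.4, whose own counts per library were 60 to 89 in 4sU-seq, with 8 to 18 in RNA-seq; whether reads were counted by strand is not given in the sources used here.

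TNIP1 (ENSG00000145901, 5:151029945-151093577, − strand) encodes ABIN1, a ubiquitin-binding protein that works with A20. In RNA-seq it stood at 38.7, 37.2 and 37.5 CPM in KO libraries, against 57.5, 50.9 and 56.8 CPM in Ctrl libraries. The KO libraries were close together and well below the Ctrl libraries, and TNIP1 fell by 0.54 on the log2 scale (SE 0.06, 1.46-fold lower, adjusted p = 7.44e-06), a call kept in every alternative run (adjusted p up to 0.00582). In 4sU-seq it was at 81.1, 103 and 69.5 CPM in KO and at 80.5, 84.8 and 75.8 CPM in Ctrl libraries. The KO libraries spanned the Ctrl range on both sides, and the change of 0.07 ± 0.16 was not called (95% interval −0.32 to 0.47, adjusted p = 0.792), nor was the −0.16 without KO replicate 2 (adjusted p = 0.206).

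BIRC3 rose most among the 10 genes, in both assays. BIRC3 (ENSG00000023445, 11:102317450-102339403, + strand) encodes cIAP2, a ubiquitin ligase recruited to TNF receptors through TRAF2, and is itself a known NF-kB target. In 4sU-seq BIRC3 had 2.06, 0.958 and 1.87 CPM in KO libraries (205, 80 and 161 counts), against 0.352, 0.242 and 0.450 CPM in Ctrl libraries (35, 20 and 37 counts). Each KO library was more than double the highest Ctrl library, with KO replicate 2 the lowest of KO and Ctrl replicate 2 the lowest of Ctrl. BIRC3 rose 4.68-fold in newly made RNA (95% interval 2.56 to 8.56, log2 2.23 ± 0.36, adjusted p = 0.00929), and the log2 change was 2.43 ± 0.21 without KO replicate 2 (adjusted p = 0.000253). The call was lost under ERCC scaling (2.52, adjusted p = 0.0756) and without Ctrl replicate 1 (0.0559).

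At steady state BIRC3 had 5.41, 4.06 and 5.13 CPM in KO libraries, against 2.02, 2.00 and 2.14 CPM in Ctrl libraries. The groups did not overlap and the KO libraries varied more than the Ctrl libraries. BIRC3 rose 2.36-fold (95% interval 1.92 to 2.91, log2 1.24 ± 0.14, adjusted p = 8.80e-06), and the call was kept in every alternative run (adjusted p up to 0.00753). Even so it had the lowest level per exon length of the 10 genes in both genotypes, at 0.647 CPM per kb in KO and 0.273 CPM per kb in Ctrl cells. TNFAIP3 came next at 0.745 CPM per kb in KO and 1.24 CPM per kb in Ctrl cells, so that BIRC3 and TNFAIP3, both inducible genes, were near each other in KO cells (SD 0.0948 and 0.0376) and well apart in Ctrl cells (SD 0.00994 and 0.0508). Of the other inhibitor genes, NFKBIA was highest at 15.2 CPM per kb in KO and 17.0 CPM per kb in Ctrl cells, followed by NFKBIE (8.61 in KO, 8.58 in Ctrl) and TNIP1 (6.53 in KO, 9.51 in Ctrl).

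**Figure D3:**
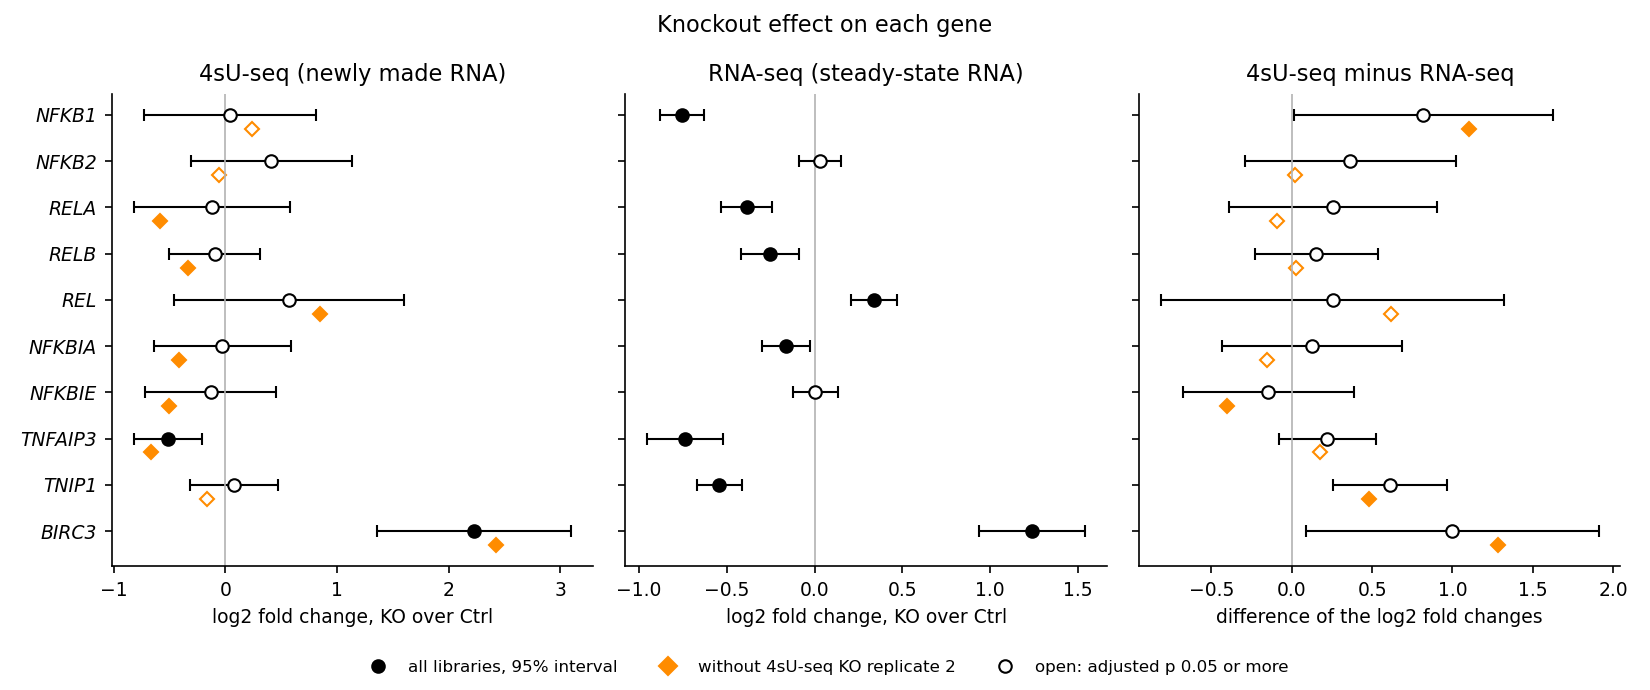
Log2 fold change of KO over Ctrl for each gene in 4sU-seq (left) and RNA-seq (middle), and the difference of the 2 log2 changes (right); circles are the fits of all libraries with 95% intervals, orange diamonds leave out 4sU-seq KO replicate 2, and open symbols have an adjusted p of 0.05 or more. The intervals are wider in 4sU-seq than in RNA-seq for every gene, and BIRC3 lies furthest to the right in the 3 panels (2.23, 1.24 and 1.00).

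A genotype-by-assay interaction term over the 12 libraries asked whether the KO effect itself differed between newly made and steady-state RNA. By edgeR 0 of the 10 genes were called (adjusted p 0.0792 or more), against 2.50% of the 15863 genes tested in both assays (1.25% in each direction); 3 had an unadjusted p below 0.05, and DESeq2 called 1, TNIP1. Over all 15863 genes 2581 had an unadjusted p below 0.05 by edgeR, and DESeq2 called 1111. The log2 change was greater in 4sU-seq by 0.61 ± 0.16 for TNIP1 (unadjusted p = 0.00296, adjusted p = 0.0792), by 1.00 ± 0.41 for BIRC3 (0.0347 and 0.257) and by 0.82 ± 0.37 for NFKB1 (0.0472 and 0.299). For TNFAIP3, the gene called lower in both assays, the difference was 0.22 ± 0.14 (adjusted p = 0.467). Without 4sU-seq KO replicate 2, 4 of the 10 were called and 27.5% of all genes were. NFKB1 (1.10 ± 0.21, adjusted p = 0.00311), TNIP1 (0.48 ± 0.12, 0.0104) and BIRC3 (1.29 ± 0.25, 0.00396) were higher in 4sU-seq than in RNA-seq, and NFKBIE was lower (−0.40 ± 0.14, 0.0489). NFKB1 and TNIP1 thus fell at steady state with no call in newly made RNA; over all 12 libraries the difference between assays was not called for NFKB1 by either tool, and for TNIP1 it was called by DESeq2 (adjusted p = 0.0242) and not by edgeR.

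The deviation of replicate 2 was visible within the 10 genes. Relative to the mean of replicates 1 and 3 (log2 CPM), 4sU-seq KO replicate 2 was higher for the 4 genes spanning under 10 kb: NFKBIA by 0.81, NFKBIE by 0.77, NFKB2 by 0.96 and RELA by 0.96. It was lower for BIRC3 (−1.03), REL (−1.47) and NFKB1 (−1.002), which span 22.0, 50.1 and 116 kb. RELB (36.8 kb) and TNIP1 (63.6 kb) stood at 0.45 and 0.46 and TNFAIP3 (16.1 kb) at 0.23, so that span did not order the genes fully. Ctrl replicate 2 deviated in the same direction for all 10 genes and by less, from −0.70 for BIRC3 to 0.42 for NFKB2. Spearman's rho with span was −0.66 in KO and −0.67 in Ctrl over the 10 genes, which share their libraries, and −0.50 and −0.39 over 20343 genes. In RNA-seq the deviations of the 10 genes lay between −0.38 and 0.04 in KO and between −0.20 and 0.04 in Ctrl libraries.

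**Figure D4:**
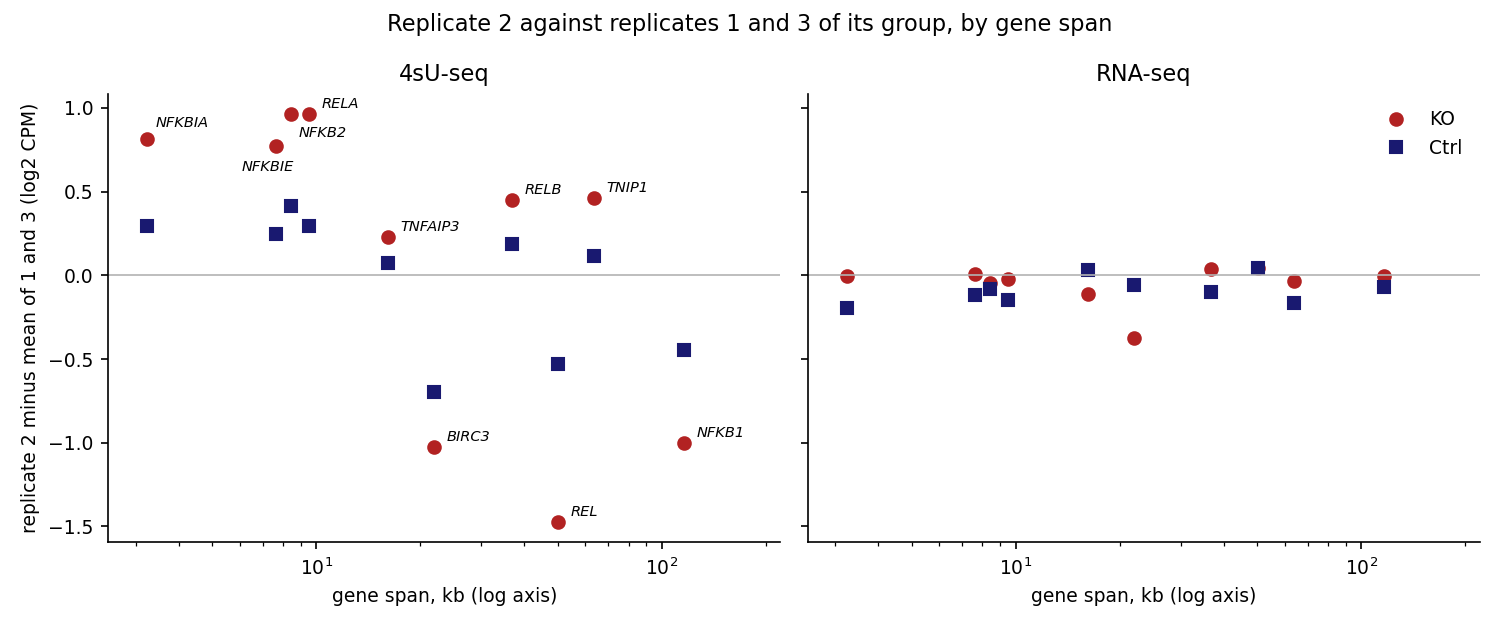
Deviation of replicate 2 from the mean of replicates 1 and 3 of its own group, in log2 CPM, against the gene span in kb (log axis), for 4sU-seq (left) and RNA-seq (right); circles are KO and squares are Ctrl. In 4sU-seq the 4 shortest genes lie above 0 and REL, BIRC3 and NFKB1 below it, further out in KO than in Ctrl, and in RNA-seq all but BIRC3 in KO (−0.38) lie within 0.20 of 0.

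The rest of the pathway was read from 5 lists of 81 other genes, of which 66 were tested in each assay. In 4sU-seq 9 were higher in KO, 4 were lower and 53 were not called, and in RNA-seq 18 were higher, 22 lower and 26 not called; the shares called were 19.7% and 60.6%, beside 19.6% (12.6% higher, 6.98% lower) and 48.4% (21.5% higher, 26.8% lower) of all genes, so the nascent count was at the background. The medians were 0.05 and −0.04, beside 0.05 and 0.00 over all genes. With RNA-seq KO replicates 1 and 2 added into 1 library, 17 were higher, 20 lower and 29 not called in RNA-seq. In that fit 40.8% of all genes were called. Without 4sU-seq KO replicate 2 the nascent counts were 13 higher, 26 lower and 27 not called, where 53.8% of all genes were called; they were 2 higher and 64 not called under ERCC scaling, and 5 to 7 in all were called without KO replicate 1 or any 1 Ctrl library. Over all genes 716 of 21236 were called under ERCC scaling, and 1322 to 1710 without KO replicate 1 or any 1 Ctrl library. Among receptors and ligands (13 tested), 5 rose in newly made RNA. TLR3, the endosomal receptor for double-stranded RNA, moved most, to 3.28, 2.42 and 3.24 CPM in KO libraries, against 0.151, 0.169 and 0.0972 CPM in Ctrl libraries (log2 4.40 ± 0.25, adjusted p = 0.000331; 4.46 without KO replicate 2). In 4sU-seq TLR3 passed the filter on low counts only through its KO libraries, so its rise and its calls there are not independent of the filter. The other 4 were TNFRSF1B, the second TNF receptor (1.62 ± 0.18), the flagellin receptor TLR5 (1.38 ± 0.18), TLR1 (1.19 ± 0.22) and TNFRSF11A, which encodes RANK (0.78 ± 0.11). Without KO replicate 2 these 4 stood at 1.55, 1.22, 1.31 and 0.72 in the same order. TNFRSF1B was near the lower end of detection in 4sU-seq, at 0.413 to 0.452 CPM in KO and 0.121 to 0.158 CPM in Ctrl libraries. It was not tested in RNA-seq. All 5 kept their direction in each alternative that tested them; TLR3 and TLR5 kept the call in each, TNFRSF1B and TNFRSF11A lost it under ERCC scaling only, and TLR1 lost it there and without KO replicate 1 or any 1 Ctrl library. At steady state 6 of the list rose and 2 fell, with TLR3 at 4.32 ± 0.15, TLR5 at 1.23 ± 0.19 and CD40 at 0.44 ± 0.07 having the smallest p.

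Beside the counts of the next lists, 6.98% of all genes were called lower and 12.6% higher in newly made RNA. Without KO replicate 2 these shares were 28.4% and 25.4%, and at steady state they were 26.8% and 21.5%. Of 22 adaptors and kinases tested, TRAF2 (−0.83 ± 0.17) and TRAF3 (−0.37 ± 0.09), adaptors that join receptors to ubiquitin ligases such as cIAP2, fell in newly made RNA and 20 were not called. Without KO replicate 2, 10 of this list fell and 1 rose, with TRAF2 at −1.09 and TRAF3 at −0.44; both TRAF calls were lost under ERCC scaling, without KO replicate 1 or 3 and without any 1 Ctrl library, and that of TRAF3 also with library size alone and with the span trend removed. At steady state 8 fell and 4 rose, among them TRAF2 (−0.43 ± 0.05), the Toll-like receptor adaptor MYD88 (−0.65 ± 0.07) and its partner kinase IRAK2 (−0.80 ± 0.10). Among 12 genes of linear ubiquitin chains and deubiquitination, OTULIN, which cuts linear chains, fell in newly made RNA (−0.45 ± 0.09) and 11 were not called; the call was lost under ERCC scaling, without KO replicate 1 and without any 1 Ctrl library. Without KO replicate 2, 7 fell and 2 rose, with OTULIN at −0.50. At steady state 7 of these fell and 2 rose, with the deubiquitinase USP7 (−0.52 ± 0.05), SPATA2 (−0.41 ± 0.06), which links the deubiquitinase CYLD to its complex, and OTULIN (−0.30 ± 0.06) having the smallest p; OTULIN lost its call under ERCC scaling and with library size alone. The other IkB-type genes NFKBIB (−0.64 ± 0.07) and BCL3 (−0.46 ± 0.06) fell at steady state, NFKBIZ rose (0.34 ± 0.09) and NFKBID was not called; in newly made RNA the adjusted p of these 4 lay between 0.0681 and 0.565, and without KO replicate 2, 2 fell and 1 rose. The steady-state calls of NFKBIZ and BCL3 were lost with all 12 libraries in 1 fit, and that of NFKBIZ without KO replicate 1.

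Beside the target list, 12.6% of all genes were called higher and 6.98% lower in newly made RNA. Without KO replicate 2 these shares were 25.4% and 28.4%, and at steady state they were 21.5% and 26.8%. Of 15 tested genes known as NF-kB targets, 4 rose in newly made RNA: PTGS2, which encodes cyclooxygenase-2 (1.33 ± 0.19), the chemokine gene CXCL8 (2.12 ± 0.38), the adhesion molecule gene ICAM1 (1.03 ± 0.23) and the cytokine gene LIF (0.87 ± 0.20). TRAF1 fell (−0.68 ± 0.13) and 10 were not called, and without KO replicate 2, 4 rose and 4 fell, with PTGS2 at 1.35, CXCL8 at 2.14, ICAM1 at 0.73, LIF at 0.58 and TRAF1 at −0.78. The 5 calls were lost under ERCC scaling; those of ICAM1 and LIF were also lost without KO replicate 1 or any 1 Ctrl library, that of CXCL8 without KO replicate 1, and that of TRAF1 without KO replicate 1, Ctrl replicate 1 or Ctrl replicate 2. At steady state 5 rose and 3 fell; TNFAIP2 (0.72 ± 0.05) and ICAM1 (1.49 ± 0.18) rose and BCL2L1, which encodes the survival protein Bcl-xL, fell (−0.54 ± 0.06), and these had the smallest p. Targets of NF-kB, like the 10 genes themselves, thus included genes on both sides in each assay. CXCL8 and PTGS2 were near the lower end of detection in Ctrl libraries of 4sU-seq (0.0302 to 0.109 and 0.211 to 0.280 CPM). CXCL8 passed the filter on low counts in 4sU-seq only through its KO libraries (0.299 to 0.359 CPM), so its rise there is not independent of the filter. At steady state CXCL8 was not called (0.51 ± 0.30, edgeR adjusted p = 0.177).

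**Figure D5:**
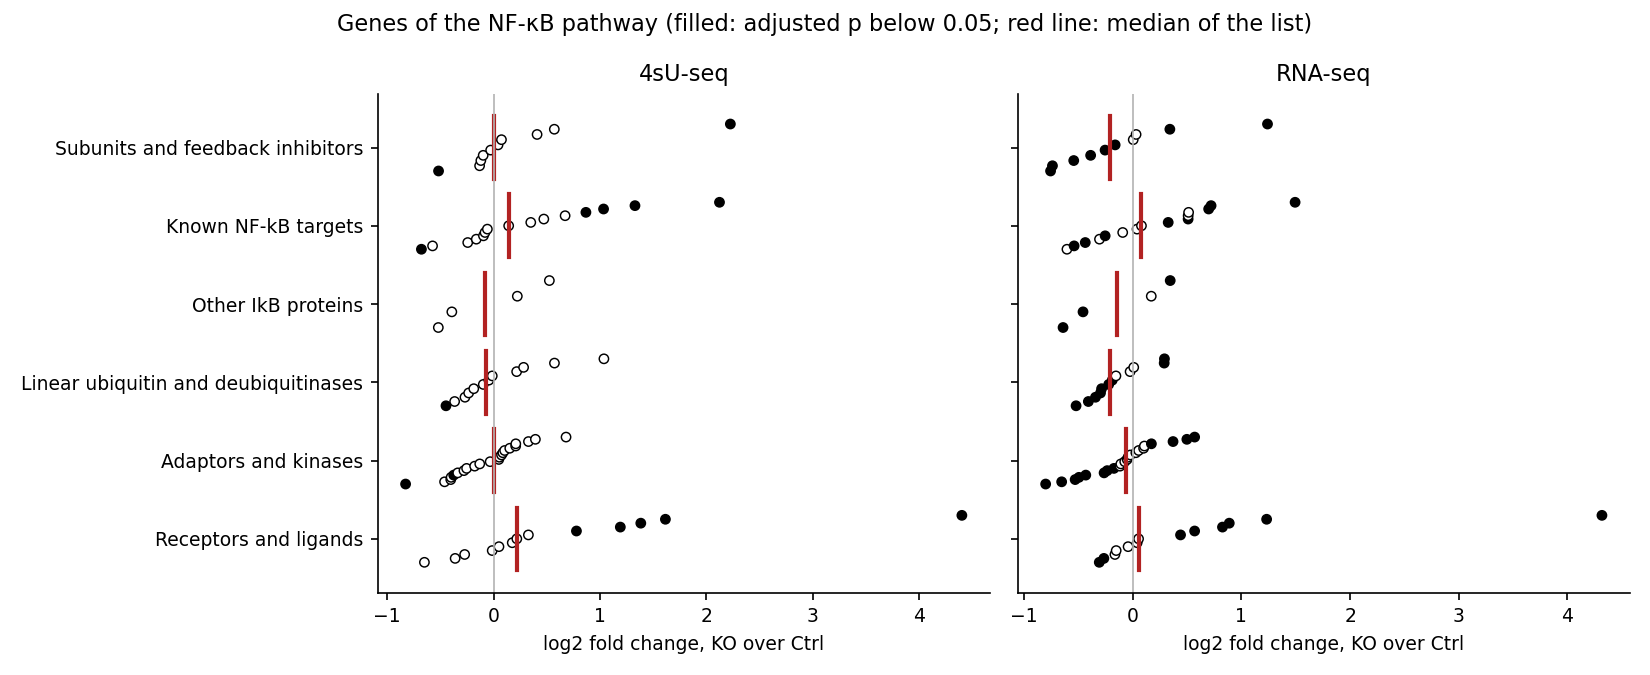
Log2 fold change of KO over Ctrl of every tested gene in the 10-gene set (top row) and in the 5 lists of other pathway genes, in 4sU-seq (left) and RNA-seq (right); each point is a gene, filled where the adjusted p is below 0.05, and red lines are list medians. The medians lie near 0 in both assays (0.01 and −0.21 for the 10 genes), the most distant point is TLR3 (4.40 and 4.32), and in RNA-seq filled points lie on both sides of 0 in every row.

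The protein-coding genes whose pattern over the 12 libraries was most like that of BIRC3 were MAST4, SYTL2 and ITGA2, with root mean square distances of 0.146, 0.173 and 0.174 (log2 CPM centred within each assay), against a median of 0.980 over 12564 genes. For TNFAIP3 they were LUC7L, CBX5 and ZBTB5, at 0.0525, 0.0605 and 0.0629, against a median of 0.367. The measure follows all 12 libraries, including the shift of 4sU-seq replicate 2, and describes likeness of pattern between libraries only. Centring removes the level of each gene, so near genes need not share a level.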

How the data were processed

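Nascent RNA (4sU-seq) and steady-state RNA (RNA-seq) of PPM1G KO and Ctrl HCT116 cells were analysed in 4 groups of 3 libraries, grouped by the labels. The authors deposited 1 table of raw gene counts per assay, with 92 ERCC spike-in species. The tools named, per the submitters' processing notes, are HISAT2 2.1.0, SAMtools 1.3, FastQC 0.11.2 and featureCounts, with hg38 as the build. Annotation, counted feature (exons or whole genes), strand setting and multi-mapping treatment remain unknown here (not given in the sources used here), which matters most for 4sU-seq, where much RNA is unspliced.

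Library sizes excluded ERCC rows. Low genes were removed with filterByExpr (minimum count 10), and after TMM scaling each assay's KO libraries were tested against its Ctrl libraries with the two-sided quasi-likelihood test of edgeR 4.0.16, with Benjamini-Hochberg adjustment over the whole table and a threshold of 0.05. The difference between assays was a genotype-by-assay interaction over 12 libraries. SE is the absolute log2 change over the square root of F. DESeq2 1.42.0, ERCC or library-size scaling, other filters, a replicate block and leaving out each library were tried as alternatives. R 4.3.3, limma 3.58.1, Python 3.11.15 and matplotlib 3.10.9 were used, and the fits were tested on simulated data. Gene coordinates and exon lengths are those of GENCODE 29 on hg38, which matched 94.3% of gene IDs and may not be the authors' annotation; promoter sequences are RefSeq's on GRCh38.p14. Genes named are PPM1G, the 10 genes, from each pathway list and assay up to 3 called genes with the smallest p (all where 5 or fewer were called), and the 3 protein-coding genes nearest in pattern to BIRC3 and to TNFAIP3; NFKBID, the lower levels of CXCL8 and PTGS2, and the steady-state change of CXCL8 were given after their values were seen. The members and lists were chosen with earlier results of these data known. The labels call the 4sU-seq replicates biological; for RNA-seq p-values measure the spread between libraries, which may be technical.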

Additional observations from a re-analysis of the deposited data

How the results depend on the processing

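BIRC3, TNFAIP3 and TNIP1 kept their direction and call at steady state in all 16 alternatives run for that comparison; NFKB1, RELA and REL kept them in 15 and lost the call when all 12 libraries were fitted together (adjusted p = 0.0550, 0.209 and 0.523). The number of the 10 genes called in 4sU-seq was 0 under ERCC scaling, 1 with library size alone, 5 with both replicates numbered 2 left out (added after seeing the data) and 0 to 7 when 1 library was left out. At steady state it was 3 with all 12 libraries in 1 fit, and 6 to 8 when 1 library was left out. For the difference between assays it was 2 with the replicate block (TNIP1 and BIRC3, adjusted p = 0.0312 and 0.0493), 1 with DESeq2, 3 with both replicates numbered 2 left out and 0 to 4 when 1 library was left out. Of the other pathway genes, 13 were called in 4sU-seq as reported, 2 under ERCC scaling, 26 with the replicate block, 21 with DESeq2, 23 with all 12 libraries, 37 with both replicates numbered 2 left out and 5 to 39 when 1 library was left out; in RNA-seq 40 were called as reported and 25 with all 12 libraries. Over all genes, calls in 4sU-seq numbered 4166 as reported and 716 (672 higher, 44 lower) under ERCC scaling, 6907 with the replicate block, 6608 with all 12 libraries, 10893 with both replicates numbered 2 left out, and 1322 to 11673 when 1 library was left out; calls in RNA-seq numbered 9871 as reported (4398 higher, 5473 lower), 4788 with all 12 libraries, 7103 under ERCC scaling (4372 higher, 2731 lower) and 10256 with library size alone (7439 higher, 2817 lower). In 4sU-seq the split was 2684 higher and 1482 lower as reported, 3100 and 858 with library size alone, and 5515 and 6158 without KO replicate 2. The difference between assays had 397 calls as reported, 7 under ERCC scaling, 190 with no filter, 657 with the replicate block, 1111 with DESeq2, 698 with the span trend removed (added later), 3927 with both replicates numbered 2 left out, and 86 to 4364 when 1 library was left out. The median of all genes in 4sU-seq was 0.27 under ERCC scaling and 0.14 with library size alone.

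Signs that turned were of values not called as reported, except NFKBIA at steady state, which was called at −0.16. In 4sU-seq NFKB1 stood at −0.0218 with no filter, −0.0886 with the span trend removed and between −0.184 and 0.237 when 1 library was left out. The ranges without 1 library were −0.0548 to 0.607 for NFKB2, −0.584 to 0.0833 for RELA, −0.420 to 0.144 for NFKBIA, −0.503 to 0.0469 for NFKBIE and −0.165 to 0.197 for TNIP1. RELB was 0.0899 and NFKBIA 0.0958 under ERCC scaling, NFKBIA 0.0660 with library size alone, and TNIP1 −0.0914 with both replicates numbered 2 left out. At steady state NFKBIA was 0.0223 with library size alone, and NFKBIE was −0.0210 with the span trend removed and −0.0205 to 0.0852 without 1 library. For the difference between assays the ranges without 1 library were −0.0927 to 0.462 for RELA, −0.0764 to 0.615 for REL, −0.154 to 0.298 for NFKBIA and −0.403 to 0.0347 for NFKBIE, and NFKBIA was −0.0465 with both replicates numbered 2 left out; the cause was not tested. Groups share replicate numbers in the labels. Deviations of same-numbered KO and Ctrl libraries from their group means correlated at −0.06, 0.67 and 0.66 in 4sU-seq. In RNA-seq they correlated at −0.03, 0.15 and 0.21. A library near its group mean gives a value near 0, so these values do not settle whether the numbers pair the libraries. The fits as reported did not pair them, and a shared replicate effect was not tested. With the replicate block, 2 of the 10 genes were called in 4sU-seq and 8 in RNA-seq. Over all genes the block gave 6907 calls of 21236 in 4sU-seq and 10384 of 20415 in RNA-seq. Depth limited BIRC3 most, at 20 to 37 counts in Ctrl libraries of 4sU-seq.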
